A study of Drosophila melanogaster with 6 samples.

Results

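The genes described here encode the vacuolar proton pump, the V-ATPase, of Drosophila melanogaster, measured in wing imaginal discs of wild type and kdm5 mutant larvae. They were taken as every gene whose symbol in the platform annotation starts with Vha, using probe sets annotated to 1 gene. This gave 31 genes with 32 probe sets, of 11982 genes named in the same way and 18769 probe sets tested. A gene with several probe sets is represented by the one of highest mean signal. The pump is a rotary machine. Its cytosolic sector, V1, hydrolyses ATP and turns a shaft, and its membrane sector, V0, uses that rotation to move protons through a ring of small subunits into endosomes, lysosomes and secretory vesicles. In the wing disc, the larval epithelium that gives rise to the wing blade and the dorsal thorax, the pump is known to be needed for Notch and Wingless signalling, both of which pass through acidified endosomes. Flies carry several gene copies of many subunits, and some copies are known mainly from the testis, the gut or neurons.

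Wild type discs came from w1118 larvae and mutant discs from the strain labelled kdm510424, which is mutant for Kdm5 (also named lid), an enzyme that removes methyl groups from lysine 4 of histone H3. All discs were taken from larvae at 96 h AED, and each of the 3 biological replicates per genotype was a pool of about 60 discs on 1 Drosophila Genome 2.0 array. The mutant was compared with w1118 and not with a control of its own genetic background, so strain and mutation cannot be told apart. The sex of the larvae is not stated in the labels. Whether replicates stem from separate crosses is not stated either, so the p-values reflect the spread among pools, which may be technical, and the number of arrays limits the precision.

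The Kdm5 signal on the deposited log2 scale was 10.09, 10.15 and 9.98 on the wild type arrays and 4.67, 3.70 and 4.49 on the mutant arrays, so the labels and the targeted gene match. All 8 measured markers of the wing disc had a mean signal above the median of all probe sets, among them nub, which marks the wing pouch, and 3 of the 8 fell. All 7 fat body, 7 haemocyte and 6 tracheal markers measured lay above that median too, so this level does not single out the disc. The medians of the 6 arrays lay between 4.42 and 4.45. Listed markers of other tissues differed between the genotypes. Of the salivary gland list 7 of 10 measured genes fell, of the fat body list 6 of 7 and of the muscle list 6 of 6. Of the tracheal list 3 of 6 rose and 1 fell, and of the haemocyte list 1 of 7 rose and 3 fell. Among all genes 9.76% rose and 11.9% fell. A fall or rise means an adjusted p under 0.05 (limma, Benjamini-Hochberg over all probe sets). The summed signal of the salivary gland markers ran from 11.99 to 13.18 in wild type and from 9.64 to 9.76 in the mutant (log2 of the sum), and that of the fat body markers from 11.80 to 12.20 and from 10.21 to 10.34. The muscle sum ran from 9.83 to 10.20 and from 8.51 to 8.86. The tracheal sum ran from 12.78 to 12.88 and from 13.21 to 13.26, and the haemocyte sum from 10.11 to 10.43 and from 9.61 to 9.76. These tissues use the same pump, and their part in the values below was not tested. In bulk RNA, fewer cells of a type and less RNA per cell cannot be told apart.

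Counted by 1 probe set per gene, few pump genes were called in kdm5 mutant discs. The second probe set of Vha16-1, described below and outside this count, changed by -0.89 (limma adjusted p = 2.32e-05). Of the 31 genes, 2 rose, the V1 subunit gene Vha14-1 and the V0 subunit gene Vha100-1, and 1 fell, the V1 subunit gene Vha44. These 3 genes are 9.68% of the set, where 18.3% of all probe sets (8.49% higher and 9.84% lower) and 21.7% of all genes (9.76% higher and 11.9% lower) passed the same test. The median log2 change was 0.01 over the 31 genes and 0.00 over all genes, and the median absolute change 0.09 against 0.11. Split at the median signal of all probe sets, the median absolute change was 0.12 against 0.14 for genes above it. For genes below it the values were 0.09 against 0.08. None of the 31 representative probe sets changed 2-fold. Of all probe sets 2.56% were called with a change of that size, a share too low for none of 31 to stand out. The groups of arrays did not overlap in 11 of the 31 genes (35.5%), against 41.7% of all genes.

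**Figure D1:**
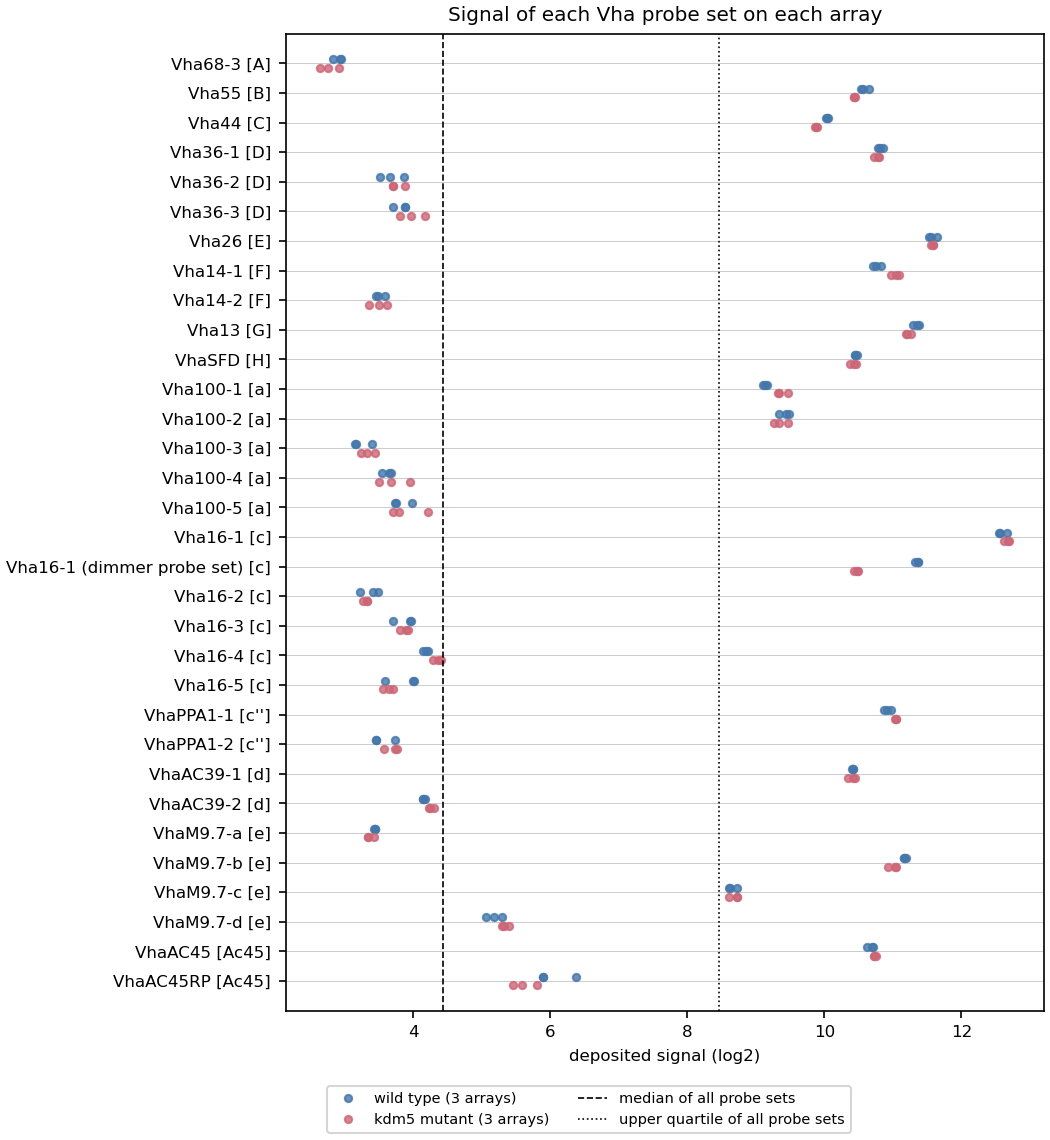
Signal of each Vha probe set (log2, horizontal axis) on 3 wild type and 3 kdm5 mutant arrays, 1 point per array, with the pump subunit in square brackets. The genes split into a bright set, mostly above the upper quartile of all probe sets (8.46), and a dim set of 14 genes to the left of the median line (4.44). The groups lie apart most in the dimmer probe set of Vha16-1.

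The genes fell into a bright and a dim set by level, a division that uses no genotype. In 17 genes the mean signal over the 6 arrays lay above 4.44, the median of all probe sets, and in 14 below it. Of the 17, 15 lay above the upper quartile of 8.46. Nearly every subunit had its bright copy: for V1, Vha55 (B), Vha44 (C), Vha36-1 (D), Vha26 (E), Vha14-1 (F), Vha13 (G) and VhaSFD (H), and for V0, Vha100-1 and Vha100-2 (a), Vha16-1 (c), VhaPPA1-1 (c''), VhaAC39-1 (d), VhaM9.7-b and VhaM9.7-c (e), with the accessory subunit VhaAC45. VhaM9.7-d and VhaAC45RP lay between the median and the upper quartile. The catalytic subunit A was read through Vha68-3 alone, since Vha68-1 and Vha68-2 were not analysed here. All 3 calls were in the bright set, 17.6% of its genes, against 32.3% of all genes at or above the median level, and the groups of arrays did not overlap in 9 of the 17, against 57.6% of those genes. A signal depends on the probes as well as on the transcript, so the levels place each gene relative to the array as a whole and do not rank the subunits.

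In the V1 sector the F subunit gene and the C subunit gene moved in opposite directions. Vha14-1, part of the central shaft, read 10.76, 10.71 and 10.82 in wild type and 11.05, 11.09 and 10.97 in the mutant (log2 signal). Every mutant array lay above every wild type array, and the rise was 0.27 ± 0.06 on the log2 scale (SE, n = 3 each, limma adjusted p = 0.0149), or 1.21-fold. The call ended when any of 3 arrays was left out, the first wild type or the first or second mutant replicate (limma adjusted p = 0.0504, 0.0556 and 0.0645). Vha44, the C subunit that clamps the sectors together and can leave when the pump comes apart, read 10.05, 10.03 and 10.04 in wild type and 9.88, 9.89 and 9.87 in the mutant. The arrays of each group lay within 0.02 of each other and the groups did not overlap, but the fall was small, -0.16 ± 0.04 (SE, n = 3 each, limma adjusted p = 0.0464). The call was lost whichever array was left out (limma adjusted p from 0.0865 to 0.128), and with the arrays centred on hybridization spike-ins, which moved the median of all probe sets by about as much, the value was 0.0167. An exact two-sided permutation test gave p = 0.1 for each of Vha14-1, Vha44 and Vha100-1, which is the lowest p possible with 3 arrays per group.

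The other bright V1 genes did not pass the test. Vha55, the nucleotide-binding B subunit, read 10.53, 10.57 and 10.65 in wild type and 10.44, 10.44 and 10.45 in the mutant, a difference of -0.14 ± 0.05 (SE, limma adjusted p = 0.114). Vha13, also called conjoined, encodes subunit G of the peripheral stalk and read 11.30, 11.35 and 11.38 against 11.27, 11.21 and 11.19, a difference of -0.12 ± 0.05 (limma adjusted p = 0.164). In both genes the groups of arrays lay apart, with the mutant lower. The other stalk gene, Vha26 (subunit E), read 11.53, 11.55 and 11.65 in wild type and 11.56, 11.59 and 11.58 in the mutant, and the groups overlapped completely. Its difference had a 95% confidence interval of -0.12 to 0.12. The shaft gene Vha36-1 (subunit D) read 10.81, 10.78 and 10.85 against 10.80, 10.79 and 10.73, with an interval of -0.15 to 0.08. VhaSFD, the regulatory H subunit, read 10.45, 10.47 and 10.45 against 10.44, 10.46 and 10.38, with an interval of -0.14 to 0.09. These last 3 genes overlapped between the groups.

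**Figure D2:**
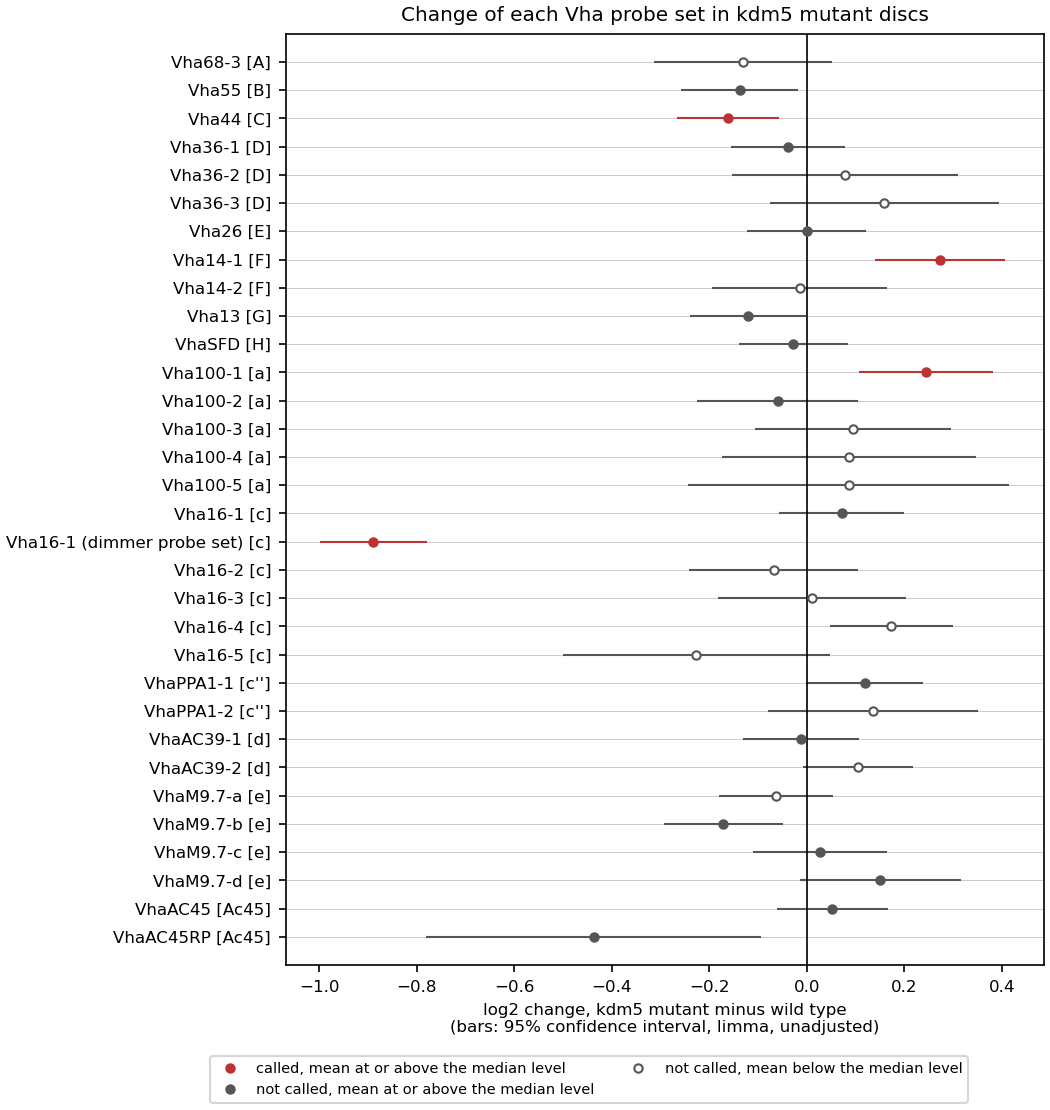
Log2 change of each Vha probe set, kdm5 mutant minus wild type, with its 95% confidence interval (limma, unadjusted, n = 3 arrays each). Filled points belong to the bright genes and open points to the dim ones, and red marks the 4 probe sets with an adjusted p under 0.05. Apart from the dimmer probe set of Vha16-1 at -0.89, the points lie between -0.44 and 0.27.

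In the V0 sector Vha100-1 rose. It encodes an isoform of subunit a, which anchors the stalk and forms the proton path beside the ring, and it is known from synapses and photoreceptor neurons. Its signal was 9.17, 9.10 and 9.13 in wild type and 9.47, 9.33 and 9.34 in the mutant, with no overlap, a change of 0.24 ± 0.06 (SE, n = 3 each, limma adjusted p = 0.0267), or 1.18-fold. The call was lost whichever array was left out (limma adjusted p from 0.0507 to 0.0825). Of the 4 measured neuronal markers none rose and ChAT fell, where 9.76% of all genes rose and 11.9% fell. Whether neurons had a part in the rise of Vha100-1 was not tested. The mean signals of elav (9.41) and brp (4.95) exceeded the median of all probe sets. nSyb (4.32) and ChAT (3.56) lay below it. The summed neuronal signal ran from 9.57 to 9.62 in wild type and from 9.43 to 9.52 in the mutant (log2 of the sum). Its bright paralogue Vha100-2 read 9.48, 9.44 and 9.34 against 9.27, 9.34 and 9.47, a difference of -0.06 ± 0.07 with an interval of -0.23 to 0.11 (limma adjusted p = 0.644). Within an array, the log2 signal of Vha100-1 minus that of Vha100-2 was -0.30, -0.34 and -0.21 in wild type and 0.20, -0.01 and -0.13 in the mutant. The groups did not overlap in this difference, which shifted by 0.30 (exact two-sided permutation p = 0.1, 0.125 after Benjamini-Hochberg adjustment over the 5 pairs of bright copies of 1 subunit). The difference contains the Vha100-1 signal, so its shift is not a result separate from the rise. The same permutation p of 0.1 was found for VhaAC45 minus VhaAC45RP (shift 0.49) and VhaM9.7-b minus VhaM9.7-d (-0.32). For VhaM9.7-c minus VhaM9.7-d (-0.12) the permutation p was 0.3, and the remaining pair is given below.

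The c ring gene Vha16-1, the only pump gene with more than 1 probe set here, gave different results in each. The brighter probe set, which represents the gene in the counts above, read 12.55, 12.57 and 12.67 in wild type and 12.70, 12.68 and 12.63 in the mutant. The groups overlapped, and the difference was 0.07 ± 0.05 (SE, limma adjusted p = 0.449). The dimmer probe set read 11.37, 11.37 and 11.33 in wild type and 10.48, 10.49 and 10.44 in the mutant. The groups lay far apart, with a change of -0.89 ± 0.05 (SE, n = 3 each, limma adjusted p = 2.32e-05), or 1.85-fold lower in the mutant. It was called with each array left out in turn, with a change between -0.90 and -0.87 (limma adjusted p from 0.000206 to 0.000278), and at -0.71 with hybridization spike-in centring.

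The gap between the probe sets was 1.18, 1.20 and 1.34 on the wild type arrays and 2.22, 2.19 and 2.20 on the mutant arrays (log2, brighter minus dimmer). It grew by 0.96 (exact two-sided permutation p = 0.1, the smallest value possible). With both probe sets averaged Vha16-1 read -0.41 and was called lower (limma adjusted p = 0.000645). Probe sets of 1 gene often differed in call: of 1094 genes with several probe sets, 334 (30.5%) had some but not all called. Changes lay at least as far apart as in Vha16-1 in 71 of the 1094 (6.49%). Among the 380 whose probe sets all lay at or above the median level they did so in 33 (8.68%). The gene table lists 4 RefSeq transcripts for Vha16-1. Which of them each probe set reads is not recorded in the files used. Each statement on Vha16-1 therefore belongs to a probe set and not to the gene as a whole. Counted by probe set, 2 pump probe sets rose and 2 fell of 32.

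**Figure D3:**
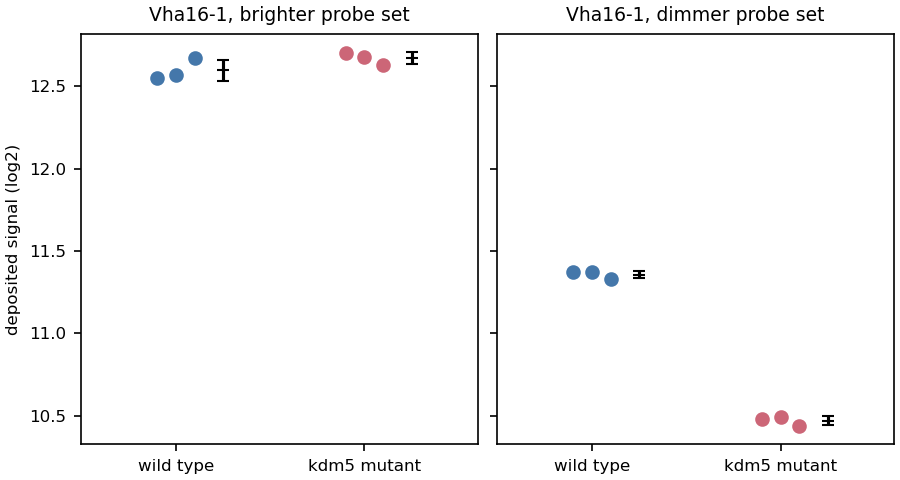
Log2 signal of both probe sets of Vha16-1 on each array (points, 3 wild type and 3 kdm5 mutant), with the mean and SD beside them. The vertical axis does not start at 0. The brighter probe set overlaps between the genotypes around 12.6, while the dimmer one drops from about 11.4 to about 10.5 on all 3 mutant arrays.

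The remaining bright V0 genes did not pass. VhaPPA1-1, the c'' member of the ring, read 10.98, 10.92 and 10.87 in wild type and 11.05, 11.03 and 11.04 in the mutant, which did not overlap (0.12 ± 0.05, limma adjusted p = 0.169). VhaAC39-1, the d subunit that couples shaft and ring and is also known by the eye colour mutation chocolate, read 10.42, 10.42 and 10.41 against 10.45, 10.42 and 10.34, with an interval of -0.13 to 0.11. The small e subunit has 3 bright copies. VhaM9.7-b read 11.17, 11.19 and 11.16 against 11.03, 11.04 and 10.93, lower on every mutant array, and just missed the threshold (-0.17 ± 0.05, limma adjusted p = 0.0632). VhaM9.7-c read 8.61, 8.72 and 8.63 against 8.72, 8.72 and 8.61, and VhaM9.7-d read 5.30, 5.18 and 5.06 against 5.29, 5.32 and 5.39. Both overlapped between the groups. Within an array the log2 signal of VhaM9.7-b minus VhaM9.7-c was 2.55, 2.46 and 2.53 in wild type and 2.31, 2.32 and 2.32 in the mutant, a shift of -0.20 (exact two-sided permutation p = 0.1, 0.125 adjusted over the 5 pairs).

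Neither accessory gene was called. VhaAC45, an accessory subunit of V0 assembly, read 10.69, 10.71 and 10.63 in wild type and 10.75, 10.72 and 10.72 in the mutant (0.05 ± 0.05, limma adjusted p = 0.544), which did not overlap. Its relative VhaAC45RP, known from neurons, read 6.37, 5.90 and 5.89 against 5.81, 5.46 and 5.58. The groups did not overlap, but wild type replicate 1 stood above the other arrays, and the difference of -0.44 ± 0.15 was not called (limma adjusted p = 0.0852, interval -0.78 to -0.09). Without wild type replicate 1 it was -0.28.

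The 14 dim genes gave no call, against 5.35% of all genes below the median level. For subunit A this was Vha68-3, a copy known from the testis, at 2.93, 2.83 and 2.94 in wild type and 2.91, 2.64 and 2.76 in the mutant. For the shaft these were Vha36-2, Vha36-3 and Vha14-2. For subunit a they were Vha100-3, Vha100-4, known from the acid-secreting cells of the midgut, and Vha100-5. The c ring had 4 dim copies, Vha16-2, Vha16-3, Vha16-4 and Vha16-5, and the others were VhaPPA1-2, VhaAC39-2 and VhaM9.7-a. Their log2 changes ran from -0.23 for Vha16-5 to 0.17 for Vha16-4, with a median of 0.08 against 0.01 for all genes below the median level. Vha16-4 read 4.18, 4.21 and 4.14 in wild type and 4.36, 4.29 and 4.40 in the mutant, and it was not called (limma adjusted p = 0.0662). VhaAC39-2 read 4.14, 4.17 and 4.14 against 4.23, 4.30 and 4.24, a difference of 0.10 ± 0.05 (limma adjusted p = 0.196). These are the dim genes whose arrays did not overlap, 2 of 14 (14.3%) against 17.1% of all genes below the median level. Vha16-5 was called lower when wild type replicate 2 was left out (-0.37, limma adjusted p = 0.0144).

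Near background a signal says little about small changes in the transcript. No detection call was at hand to show which dim genes were expressed. Testis and germline markers were dim as well, with 8 of 10 measured genes below the median level. Of the 10 genes 4 fell (40%, against 11.9% of all genes), the dim bam and Mst87F and the brighter piwi and mia. Midgut markers were dim in 6 of 9. In the gene order of the annotation some dim copies lie beside a relative: Vha100-4 is next to the bright Vha100-2, Vha16-3 next to Vha16-2, and Vha68-3 next to Vha68-2.

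The intervals bound the changes of single probe sets. Among the 14 bright genes that were not called, the 95% confidence interval of the representative probe set excluded a change of 1.25-fold in either direction in 13. For VhaAC45RP the interval reached 1.72-fold. One of the 13 is Vha16-1, for which the bound holds for the brighter probe set only, since the dimmer one fell 1.85-fold with an interval of 0.501 to 0.582 times the wild type signal. Of the 31 representative probe sets 30 had an interval inside 1.5-fold, and the dimmer probe set of Vha16-1 did not. Those 30 include all 14 dim genes, for which a narrow interval near background says little about the transcript. These intervals are unadjusted, cover the spread among the 6 arrays on the deposited scale, and do not cover a change shared by all probe sets. Centred on hybridization spike-ins, 10 of the 31 pump genes were called higher and 0 lower. Of all probe sets 34.6% were called there, and only 13.8% of those calls were lower. The median of all probe sets was 0.19 in that setting and that of the pump genes also 0.19. Centring shifts every probe set on an array by the same amount, so the difference between these medians is fixed by its construction.

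Genes that work with the pump in acidic compartments were counted from lists, 54 measured genes of 65. Of these 5 rose and 7 fell, with a median log2 change of 0.02. The called share was 22.2%, close to the 21.7% of all genes and below the 32.3% of genes at or above the median level, where 52 of the 54 lay. The largest changes were falls of lysosomal genes. Lamtor3, a subunit of the Ragulator complex, which binds the pump and holds the Rag GTPases of TORC1 signalling on the lysosome, read 9.97, 10.01 and 10.01 in wild type and 9.19, 9.18 and 9.18 in the mutant, a change of -0.81 ± 0.05 (SE, n = 3 each, limma adjusted p = 2.98e-05). The lysosomal exporter gene spin read 11.00, 10.98 and 10.92 against 10.22, 10.18 and 10.25, a change of -0.75 ± 0.05 (limma adjusted p = 7.41e-05). Ppt1, a lysosomal thioesterase that removes palmitate from proteins, read 9.83, 9.87 and 9.80 against 9.27, 9.30 and 9.33, a change of -0.53 ± 0.05 (limma adjusted p = 0.000319). In these genes the groups were far apart, and the calls held in all 16 alternatives tried.

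**Figure D4:**
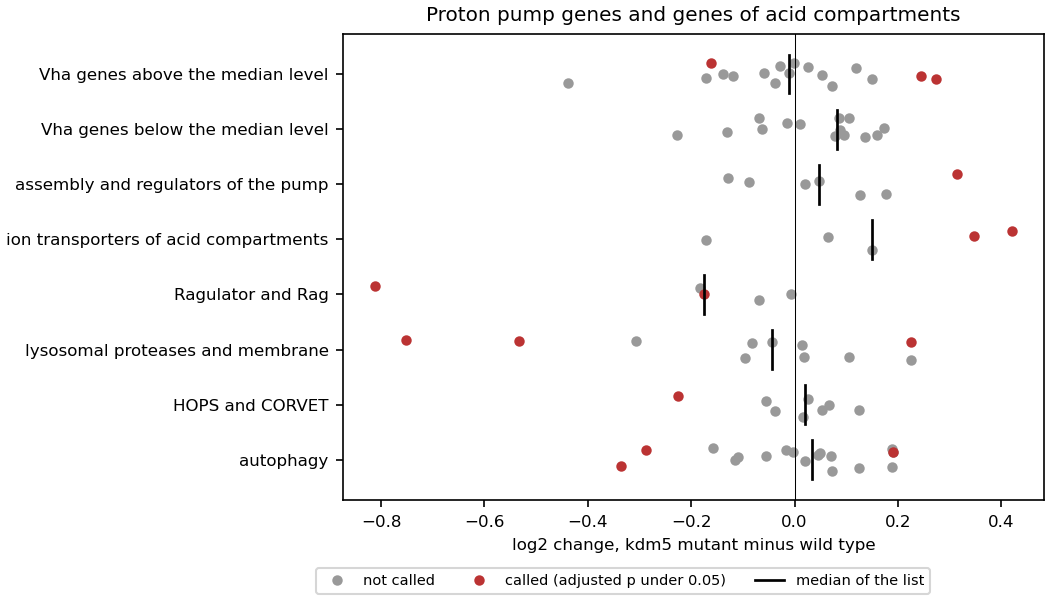
Log2 change, kdm5 mutant minus wild type, of each gene (points) in the bright and dim Vha sets and in 6 lists of genes that work in acidic compartments, with the median of each list as a bar and called genes in red. The bright Vha genes lie between -0.44 and 0.27, and the points farthest to the left are Lamtor3, spin and Ppt1. Vertical scatter within a list has no meaning.

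Calls in both directions occurred among the lysosomal and the autophagy genes. Of 5 measured Ragulator and Rag genes 2 fell, Lamtor3 and Lamtor4, the latter by 0.18 ± 0.05 (SE, limma adjusted p = 0.0428), a call lost whichever array was left out (0.0771 to 0.121). The median of that list was -0.18, and all 5 differences were below 0 on the deposited scale. Lamtor1 at -0.07, Lamtor5 at -0.01 and RagC-D at -0.18 were not called (limma adjusted p = 0.407, 0.942 and 0.0641). The sign of the small differences depends on the centring: with hybridization spike-ins Lamtor4 read 0.0019, while Lamtor3 read -0.63. Of 11 lysosomal protease and membrane genes spin and Ppt1 fell and Npc1a, a sterol transporter, rose by 0.23 ± 0.05 (limma adjusted p = 0.0252), while the proteases CtsL1, cathD, CtsB and CtsF and the membrane protein Lamp1 were not called. The Npc1a call ended when wild type replicate 1, wild type replicate 2 or any 1 mutant replicate was left out (limma adjusted p from 0.0513 to 0.0999).

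Of 7 assembly factors and regulators, gig rose by 0.31 ± 0.04 (limma adjusted p = 0.00275). It encodes Tsc2, an inhibitor of TORC1 and not an assembly factor of the pump. Mitf, the transcription factor known to drive V-ATPase genes in flies, read 8.38, 8.38 and 7.97 in wild type and 8.24, 8.30 and 8.33 in the mutant (0.05 ± 0.11, limma adjusted p = 0.84). Its groups overlapped. ATP6AP2, an accessory protein of the pump whose symbol does not start with Vha, changed by 0.02 ± 0.05 (limma adjusted p = 0.845).

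Of 5 ion transporters the sodium-proton exchanger genes Nhe3 and Nhe1 rose by 0.35 ± 0.06 and 0.42 ± 0.09 (limma adjusted p = 0.00492 and 0.0215), and the chloride transporter genes ClC-b and ClC-c were not called. The Nhe1 call ended when wild type replicate 1 or 2 was left out (limma adjusted p = 0.0605 and 0.0664). Of 8 genes of the HOPS and CORVET tethers Vps33B fell by 0.22 ± 0.05 (limma adjusted p = 0.0256). Vps33B is known to act with a different partner from the HOPS subunits, and its call ended when any 1 array other than the first mutant replicate was left out (limma adjusted p from 0.0529 to 0.102). Of 18 autophagy genes Atg17 and Atg6 fell by 0.34 ± 0.05 and 0.29 ± 0.06 and Atg13 rose by 0.19 ± 0.05 (limma adjusted p = 0.0042, 0.0145 and 0.0353). The Atg6 call ended when wild type replicate 1 or mutant replicate 2 was left out (0.0546 and 0.0576), and Atg13 whichever array was left out (0.0591 to 0.106). Vps33B, Atg6 and Atg17 were not called with either spike-in centring (limma adjusted p from 0.0586 to 0.665). The 4 endosomal Rab genes listed were not analysed here.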

How the data were processed

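The values are those of the series matrix deposited by the authors, normalized log2 signals per probe set on 6 arrays. PLIER, GCRMA, Affymetrix Expression Console and GCOS are listed in the submitters' processing notes, without saying which produced the deposited log2 table. Of 18952 rows 183 manufacturer's controls were left out, and 18769 probe sets were tested. GEO's platform annotation gave 1 gene symbol to 13647 of them. Of these, 13544 were matched by gene identifier to RefSeq (Release 6) and carry its symbol, whether or not it differed. RefSeq lists 33 Vha genes, of which 31 were measured.

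Each probe set was fitted with limma 3.58.1 (lmFit and eBayes, R 4.3.3), genotype as the only term, two-sided, with 4 residual degrees of freedom, with p-values adjusted by Benjamini-Hochberg over every tested probe set and a threshold of 0.05. The fit was tested on simulated data. Single values were also tested by exact permutation over arrays (scipy 1.17.1). The members and lists were chosen with earlier results of these data known. The rule for named genes covers Kdm5, every Vha gene, and up to 4 called members of each list, or the 2 brightest where none was called. Mitf, nub, elav, brp, nSyb, Lamtor1, Lamtor5, RagC-D, ClC-b, ClC-c, Lamp1 and the cathepsin genes fall outside it and were named after their values were seen. ATP6AP2 joined its list after the annotation was read and before its values were. Tissue lists are given by counts and summed signal, and midgut, Malpighian tubule, tracheal and haemocyte lists served as further markers. Of 9 tubule genes 1 rose and 1 fell, of 9 midgut genes 1 rose, of 6 tracheal genes 3 rose and 1 fell, and of 7 haemocyte genes 1 rose and 3 fell. Within-array differences and the dimmer probe set of Vha16-1 were chosen after the data were seen. A search of promoters for motifs was not carried out. Alternatives were a replicate term, other normalizations and centrings, a filter on dim probe sets, another variance prior, array weights, other gene summaries and each array left out.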

Additional observations from a re-analysis of the deposited data

How the results depend on the processing

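The number of called pump genes was small under most settings, and which genes passed varied. The called share of all tested probe sets, the background for pump and related genes alike, varied too. It was 18.3% as reported, 23.4% with a trended and robust prior and 34.6% with hybridization spike-in centring. With dim probe sets filtered out it was 43.0%. With the trended prior 3 of 31 pump genes rose and 5 fell, a share not below that of all probe sets. With the filter 2 of 17 pump genes rose and 3 fell, a share that stayed below it. The count of higher genes, 2 as reported, was 1 with the replicate number as a block and 10 with hybridization spike-in centring, 5 of them bright and 5 dim, and ran from 0 to 1 with each array left out. The count of lower genes, 1 as reported, was 0 with the arrays centred on their medians or on either kind of spike-in, 3 when dim probe sets were filtered out, 5 with a trended and robust prior, 2 with 1 probe set per gene, 3 with probe sets averaged, and 0 to 1 with each array left out. These lower genes were all bright, except Vha16-5 without wild type replicate 2, so bright genes called lower numbered 0 in every fit without an array. With 1 probe set per gene or averaged probe sets 1 dim gene, Vha16-4, was called higher. The replicate numbers do not pair the arrays (correlations of same-numbered deviations -0.07, -0.03 and -0.18 over probe sets at or above the median level), and under that block Vha14-1 and Vha44 lost their calls while VhaAC45RP gained one (limma adjusted p = 0.015). Vha44 read 0.0167 with hybridization spike-in centring, which moved all probe sets, and Lamtor4 read 0.0019 there. Vha16-1 read -0.41 with its probe sets averaged and -0.89 with the dimmer one. The median change of the pump genes ran from -0.00 to 0.05 with each array left out. Of the related genes, 5 higher and 7 lower as reported, the higher ones numbered 3 with the block, 18 with hybridization spike-ins, 12 with the filter on dim probe sets, 13 with the trended prior, 8 with 1 probe set per gene, 9 with averaged probe sets and 2 to 4 with an array left out. The lower ones numbered 3 with either spike-in centring, 14 with the trended prior and 4 to 6 with an array left out. Except for the spike-in shift, the cause of these differences was not tested. With 3 arrays per group, changes of the size seen in Vha44 lie at the edge of what can be called.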
